A study of Mus musculus with 13 samples.

Results

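The matrix metalloproteinases (MMPs), the ADAMTS proteases with their ADAMTS-like relatives, and the tissue inhibitors of metalloproteinases (TIMPs) were followed through cell populations of mouse skeletal muscle. Members were chosen by name alone: every symbol in the bulk table made of Mmp, Timp, Adamts or Adamtsl and a number, with a letter allowed after the Mmp number. This gave 51 of the 24411 genes listed, namely 23 Mmp, 4 Timp, 19 Adamts and 5 Adamtsl genes.

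All samples came from wild-type C57BL/6 mice aged 2 months. Bulk RNA-seq was done with Smart-seq2, which copies full-length cDNA from few cells, on 11 libraries in 4 groups. Fresh SMMC (n = 3), which the study calls smooth-muscle/mesenchymal-like cells, were sorted as CD31-CD45-Sca1-Vcam1-ITGA7+ and used without culture. Proliferating SMMC (n = 3) were the same sort after 3 days of culture, and differentiating SMMC (n = 3) had been cultured and then left to differentiate for a time that the labels do not give. Fresh MuSC (n = 2) were muscle stem cells labelled quiescent, sorted like the SMMC but as Vcam1+. A further 2 libraries of uninjured hindlimb mononuclear cells were made with 10x droplets, so that single cells could be read. The labels do not say that the libraries of a group come from separate animals, so each p-value measures only the spread between these libraries, which may be technical.

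The sorts were checked with marker genes of 15 cell types, summed in FPKM, which are sequenced fragments divided by transcript length and by library size. The sum of the 10 muscle stem cell markers was 821 to 1142 FPKM in fresh SMMC, against 28719.5 and 41390.4 FPKM in MuSC. In fresh SMMC the 8 tenocyte (tendon cell) markers summed to 9052 to 18478.8 FPKM, above the 8 pericyte markers at 1459 to 3785 FPKM and the 8 vascular smooth muscle markers at 1206 to 1862 FPKM. Tenocyte markers were at 6.62 to 17.7 FPKM in proliferating and 15.5 to 34.9 FPKM in differentiating SMMC. Fresh SMMC also held markers of other cells: endothelial markers summed to 213 to 345 FPKM in fresh SMMC, against 7.65 and 8.22 FPKM in MuSC. Schwann or glial markers summed to 309 to 508 FPKM in fresh SMMC, against 53.2 and 46.6 FPKM in MuSC, and red blood cell markers to 332 to 885 FPKM in fresh SMMC, against 13.2 and 6.84 FPKM in MuSC. Their part in the members' differences was not tested. The 9 markers of fibro-adipogenic progenitors (FAPs, the connective tissue progenitors of muscle) summed to 2286 to 4307 FPKM in fresh SMMC, against 279 and 182 FPKM in MuSC. In bulk samples, fewer cells of a type and less RNA per cell cannot be told apart, and this applies to every bulk result here.

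MMPs are secreted or membrane-bound zinc proteases that are made as inactive precursors and cut collagens, basement membrane proteins and growth factor carriers. TIMPs block their active site, and TIMP3 also blocks several ADAM and ADAMTS proteases. ADAMTS proteases have narrower roles: some cut the proteoglycans aggrecan and versican, some trim procollagen before fibrils form, and some cut cartilage oligomeric matrix protein. ADAMTS-like proteins share the matrix-binding repeats but lack the protease domain, and several bind fibrillin microfibrils. In muscle these genes act on the basement membrane around fibres and stem cells, on vessel walls and on tendon.

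In mice, 10 Mmp genes lie side by side on chromosome 9 within 427 kb (GRCm38, which is mm10, chr9:7272514-7699585). Their promoters are shown because this cluster carried a motif that no other member with a listed promoter carried. RefSeq promoters (GRCm38.p6) of 300 bases, 250 before to 50 after each start, were listed for 36 of the 51 members, with 39 promoters in all. The AP-1 motif TGANTCA, searched on both strands, was found for 8 of the 10 cluster genes and for 0 of the other 26 members. All 8 promoters also held TATAAA, the TATA box that places the start of transcription. Among all 32851 promoters listed, 7.81% held the AP-1 motif, 13.6% held TATAAA on either strand and 1.54% (507) held both. These background shares are thus looser than a match on the gene's strand, which the 8 promoters have. Windows of 80 bases that begin 15 bases before the AP-1 match are given 5′ to 3′ on the gene's strand, with the AP-1 motif and the TATA box in capitals:
Mmp13 (chr9:7272464-7272543, +): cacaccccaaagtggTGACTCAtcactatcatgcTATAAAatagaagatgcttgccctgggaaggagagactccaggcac
Mmp12 (chr9:7347315-7347394, +): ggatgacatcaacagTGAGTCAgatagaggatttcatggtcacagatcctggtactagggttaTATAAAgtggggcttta
Mmp1b (chr9:7388055-7388134, -): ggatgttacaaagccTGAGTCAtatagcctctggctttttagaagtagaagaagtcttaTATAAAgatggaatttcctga
Mmp3 (chr9:7445761-7445840, +): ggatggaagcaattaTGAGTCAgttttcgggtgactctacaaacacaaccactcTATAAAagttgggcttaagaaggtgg
Mmp1a (chr9:7464053-7464132, +): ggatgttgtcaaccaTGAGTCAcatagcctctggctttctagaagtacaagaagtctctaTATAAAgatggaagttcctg
Mmp10 (chr9:7502264-7502343, +): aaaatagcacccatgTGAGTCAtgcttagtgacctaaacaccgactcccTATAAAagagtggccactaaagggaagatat
Mmp20 (chr9:7628121-7628200, +): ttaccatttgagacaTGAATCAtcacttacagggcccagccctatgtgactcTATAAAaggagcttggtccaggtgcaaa
Mmp7 (chr9:7692012-7692091, +): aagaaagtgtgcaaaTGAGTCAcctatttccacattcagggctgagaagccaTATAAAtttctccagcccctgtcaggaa

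Between the end of the AP-1 match and the start of the TATA box lay 12 bases in Mmp13 and 41 bases in Mmp12, and 27 to 38 bases in the other 6 promoters. The remaining cluster genes, Mmp8 (neutrophil collagenase) and Mmp27, had no AP-1 match in this window. Letters that match a motif are a description of the sequence and not evidence that a factor binds there. Of the 10 genes, Mmp13 and Mmp3 passed the bulk filter described next, and the other 8 stayed at or under 1.56 FPKM in every library.

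Of the 51 members, 34 passed the filter of at least 1 FPKM in at least 2 of the 11 libraries and were tested: 11 of 23 Mmp, 4 of 4 Timp, 14 of 19 Adamts and 5 of 5 Adamtsl genes. The other 17, comprising 12 Mmp and 5 Adamts genes, reached at most 2.08 FPKM in any library (Adamts17), and Mmp20 and Mmp27 were listed at 0 in all 11. Among the 34 tested members, fresh SMMC had the highest mean for 22, proliferating SMMC for 0, differentiating SMMC for 7 and MuSC for 5. Over all 13233 genes tested, these shares were 27.7%, 26.5%, 24.9% and 20.8%. The filter keeps a member that is high in only one group, so these counts describe the tested members and not the family of 51.

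**Figure D1:**
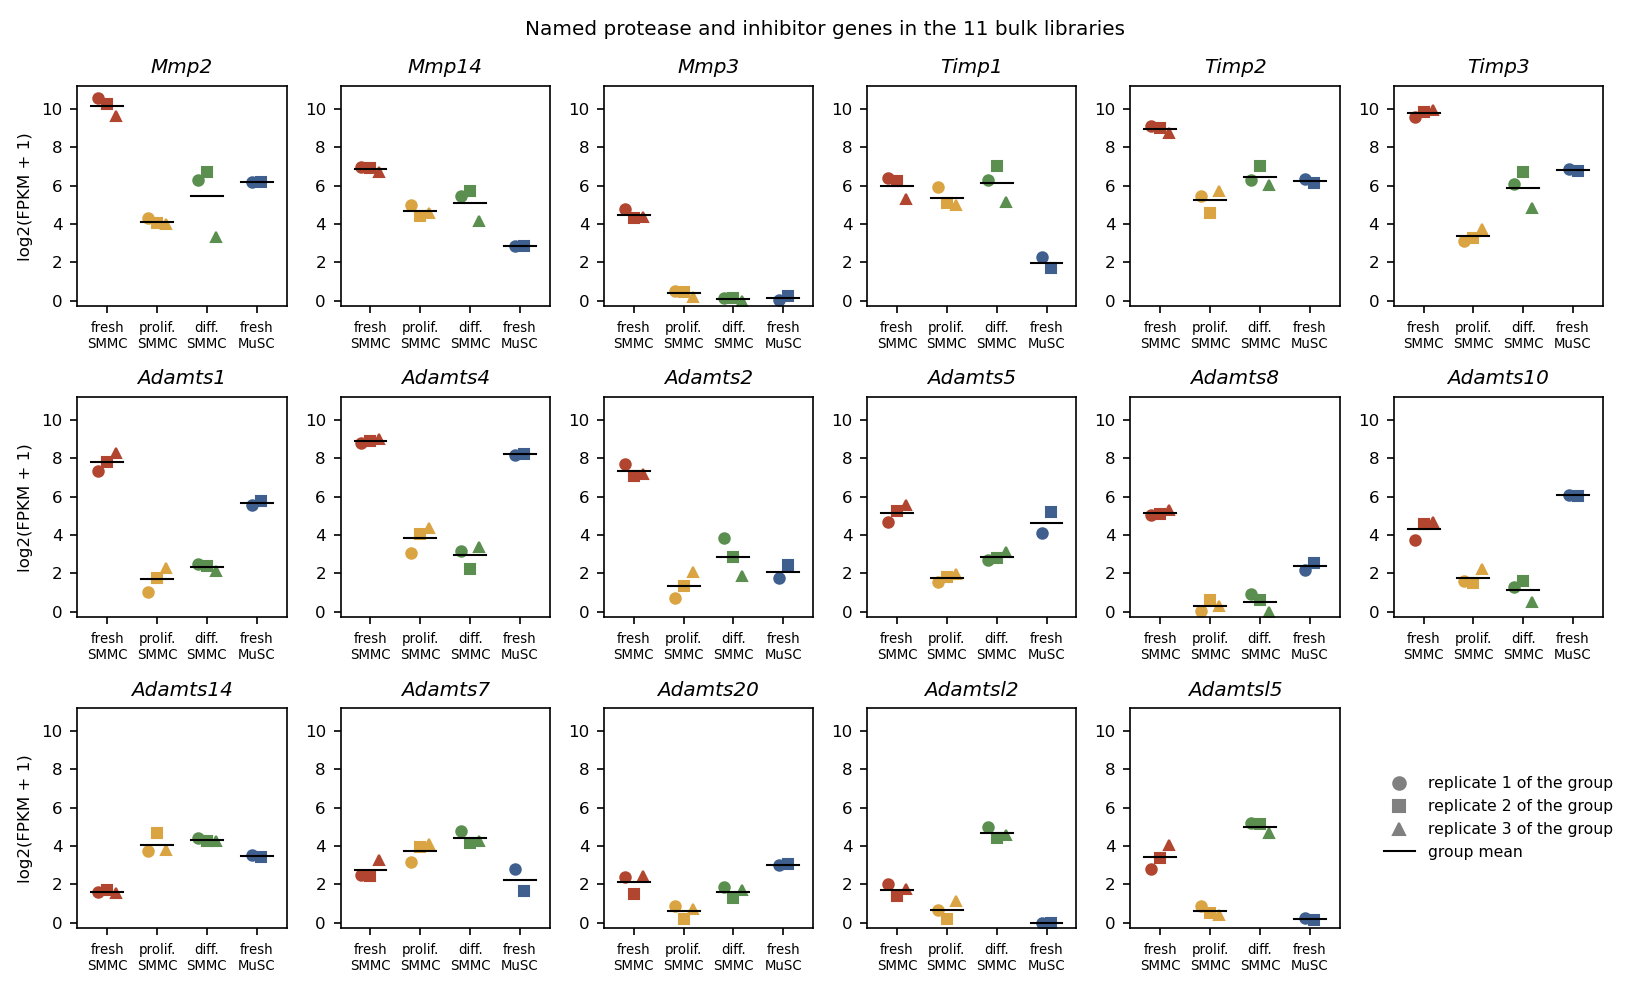
The 17 named members in each bulk library as log2(FPKM + 1), with fresh SMMC, proliferating SMMC, differentiating SMMC and fresh MuSC from left to right; each point is a library, its shape is the replicate number and the line is the group mean. Most members are highest in fresh SMMC, Adamts14, Adamts7, Adamtsl2, Adamtsl5 and Timp1 have their highest mean in differentiating SMMC, and Adamts10 and Adamts20 have it in MuSC.

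Fresh SMMC were set against MuSC to compare the Vcam1-negative and Vcam1-positive cells of the ITGA7+ sort. With limma on log2(FPKM + 1), at an adjusted p under 0.05 over all genes, 23 of the 34 members were higher and 3 lower in fresh SMMC. Among all genes tested, 41.7% were higher and 18.0% lower. By family, 10 of 11 Mmp, 4 of 4 Timp, 6 of 14 Adamts and 3 of 5 Adamtsl genes were higher, and the 3 lower members were all Adamts genes. The median log2 difference was 2.16 over the members and 0.45 over all genes, so the members' values are best read against that shift of the whole table, which scaling with TMM factors reduced to 0.06.

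Culture was examined by setting proliferating SMMC against fresh SMMC. Of the 34 members, 2 were higher and 28 lower in proliferating SMMC, where 33.1% and 35.4% of all genes were. The median log2 difference was -2.97 over the members and -0.06 over all genes. Falls covered 9 of 11 Mmp, 3 of 4 Timp, 11 of 14 Adamts and 5 of 5 Adamtsl genes, and both members that rose, Adamts14 and Adamts7, were Adamts genes. The pericyte markers fell with them, 8 of 8, as did 7 of 8 tenocyte and 9 of 9 FAP markers. Vascular smooth muscle markers fell less, summing to 601 to 849 FPKM in proliferating and 1206 to 1862 FPKM in fresh SMMC. Muscle stem cell markers went the other way, summing to 1635 to 1723 FPKM in proliferating and 821 to 1142 FPKM in fresh SMMC. So did skeletal muscle fibre markers, at 557 to 1477 FPKM in proliferating and 57.3 to 110 FPKM in fresh SMMC. The part of all these markers in the members' falls was not tested.

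Differentiating SMMC were set against proliferating SMMC to follow the cultured cells further. Here 10 members were higher and 0 lower, with 20.9% and 19.6% of all genes called. The 10 comprised 4 of 5 Adamtsl, 3 of 14 Adamts, 2 of 4 Timp and 1 of 11 Mmp genes, and the median log2 difference was 0.58 over the members and 0 over all genes. At an unadjusted p under 0.05, limma gave 1 member lower, Adamts4. Against fresh SMMC, differentiating SMMC had 5 members higher and 25 lower, with 34.7% and 33.3% of all genes called, and the median was -2.25 for the members and 0.03 for all genes. These 4 comparisons share libraries: fresh SMMC enter 3 of them, so their counts are not independent of each other.

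**Figure D2:**
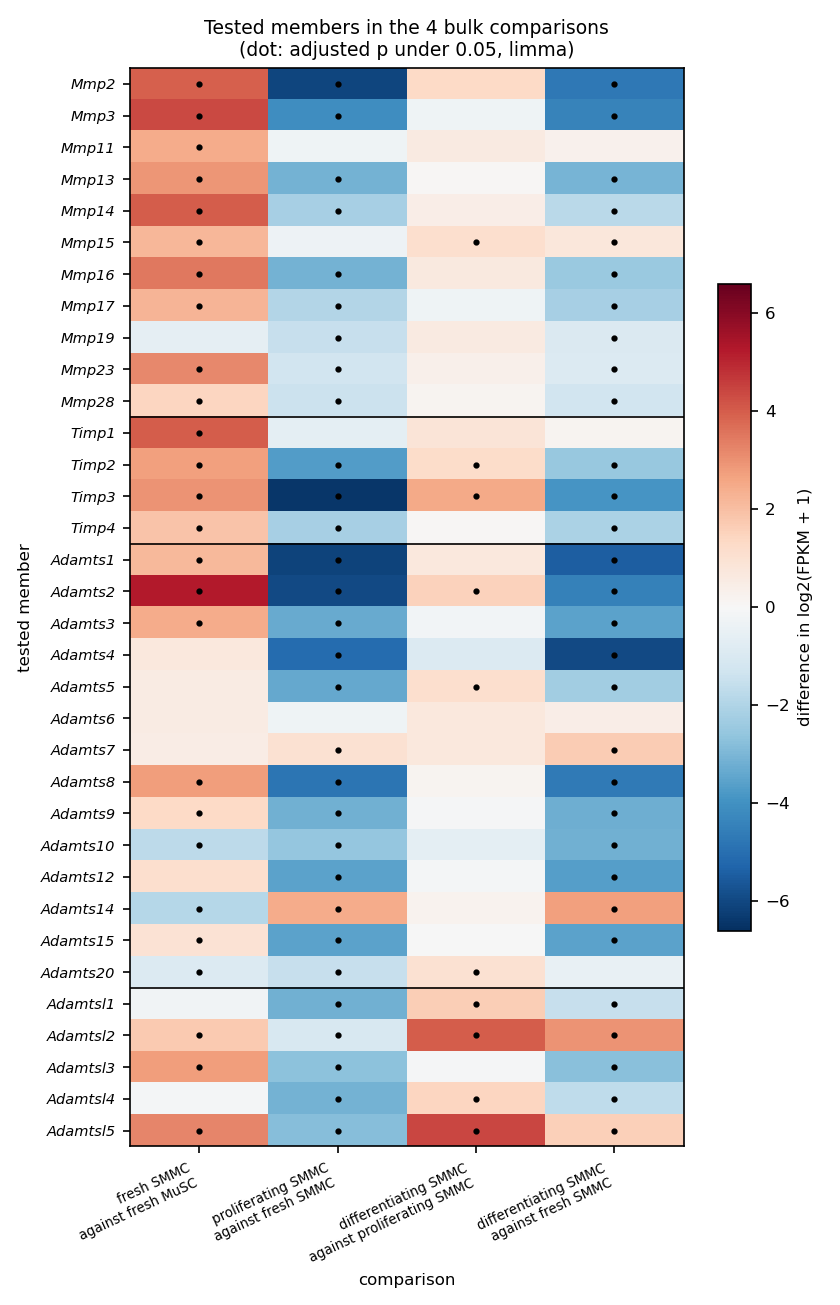
Difference in log2(FPKM + 1) of the 34 tested members (rows, grouped into Mmp, Timp, Adamts and Adamtsl) in the 4 bulk comparisons (columns); red is higher and blue lower in the group named first, and a dot marks an adjusted p under 0.05 in limma. Members are mostly red against MuSC and blue in proliferating against fresh SMMC, with Adamts14 and Adamts7 the exceptions, and the strongest red of the third column is in Adamtsl2 and Adamtsl5.

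Mmp2 (gelatinase A, which cuts basement membrane and denatured collagen; chr8:92827290-92853421) was the most abundant protease gene of the set in fresh SMMC. It had 1547, 1231 and 779.7 FPKM in fresh SMMC, 18.5, 15.6 and 14.8 FPKM in proliferating SMMC, and 76.4, 105 and 8.94 FPKM in differentiating SMMC, against 71.6 and 72.3 FPKM in MuSC. All fresh SMMC libraries lay above all others, and the differentiating libraries spread from below the proliferating ones to above MuSC. Mmp2 was 15.6-fold higher in fresh SMMC than in MuSC (log2 difference 3.97 ± 0.73 SE, adjusted p = 0.000506, limma). It was 66.3-fold lower in proliferating than in fresh SMMC (-6.05 ± 0.65, adjusted p = 4.75e-06, limma). Every fold given here was computed after adding 1 FPKM, and so is smaller than the true ratio where a gene is low. Between differentiating and proliferating SMMC the difference of 1.33 ± 0.65 did not pass (adjusted p = 0.127, limma); without differentiating replicate 3 it was 2.39 and passed (adjusted p = 4.84e-05).

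Mmp14 (the membrane-bound protease that activates proMMP2 at the cell surface; chr14:54431598-54442456) followed the same order in fresh SMMC but held its level better in culture. It had 122, 119.8 and 103 FPKM in fresh SMMC, 30.8, 20.6 and 22.9 FPKM in proliferating SMMC, and 42.5, 51.2 and 16.5 FPKM in differentiating SMMC, against 6.31 and 6.10 FPKM in MuSC. All 9 SMMC libraries thus exceeded both MuSC libraries. The fresh SMMC level was 16.1-fold that of MuSC (4.005 ± 0.37, adjusted p = 2.08e-06, limma), and proliferating SMMC were 4.55-fold lower than fresh SMMC (-2.18 ± 0.33, adjusted p = 8.06e-05). Mmp14 made up 6.99 to 10.8% of the summed Mmp FPKM in fresh SMMC, 43.9 to 49.9% in proliferating and 28.0 to 38.9% in differentiating SMMC, against 7.22 and 7.35% in MuSC. Mmp2 made up 82.4 to 88.3% in fresh SMMC, 28.9 to 33.1% in proliferating and 21.0 to 57.3% in differentiating SMMC, against 83.4 and 85.7% in MuSC. Mmp2 thus led the Mmp sum in all 5 fresh libraries and in 2 of 6 cultured ones, and Mmp14 led it in the other 4.

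Mmp3 (stromelysin 1, which cuts proteoglycans and activates other MMPs; chr9:7445822-7455975) was above 1 FPKM in the fresh SMMC libraries alone among the bulk libraries. It had 26.0, 19.1 and 19.4 FPKM in fresh SMMC, and at most 0.421 FPKM in proliferating, 0.105 FPKM in differentiating SMMC and 0.183 FPKM in MuSC. The fresh SMMC value was 20.2-fold that of MuSC (4.34 ± 0.21, adjusted p = 1.44e-08, limma), and proliferating SMMC lay 17.1-fold under fresh SMMC (-4.10 ± 0.19, adjusted p = 6.02e-09). Its neighbour Mmp13 (collagenase 3) had 13.9, 6.68 and 4.79 FPKM in fresh SMMC and at most 0.143 FPKM in cultured SMMC, against 0.0602 and 0.270 FPKM in MuSC. Mmp15, another membrane-bound MMP, was the Mmp gene that rose in differentiating over proliferating SMMC, at 7.75, 6.68 and 7.52 FPKM in differentiating SMMC, against 2.90, 2.36 and 3.39 FPKM in proliferating SMMC (1.11 ± 0.19, adjusted p = 0.000639, limma).

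Timp1 (chrX:20870166-20874737, within Syn1 on the opposite strand) was the inhibitor with no call among the 3 SMMC groups. It had 83.7, 74.0 and 39.0 FPKM in fresh SMMC, 60.1, 32.6 and 31.1 FPKM in proliferating SMMC, and 77.1, 130.4 and 34.7 FPKM in differentiating SMMC, against 3.77 and 2.24 FPKM in MuSC. The 3 SMMC groups overlapped, and all 9 SMMC libraries lay above MuSC. Timp1 was 16.1-fold higher in fresh SMMC than in MuSC (4.01 ± 0.49, adjusted p = 2.08e-05, limma). Proliferating against fresh SMMC gave -0.65 ± 0.44 (adjusted p = 0.207) and differentiating against proliferating SMMC 0.83 ± 0.44 (adjusted p = 0.16, limma); without differentiating replicate 3 the second was 1.33 and passed (adjusted p = 0.0183).

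Timp2 (a broad MMP inhibitor that also links proMMP2 to MMP14; chr11:118301061-118355411) had 549, 523 and 426 FPKM in fresh SMMC, 43.5, 22.4 and 51.9 FPKM in proliferating SMMC, and 78.8, 129 and 65.3 FPKM in differentiating SMMC, against 81.4 and 70.0 FPKM in MuSC. Fresh SMMC stood clear of every other library, and the differentiating libraries stood clear of the proliferating ones. It was 6.50-fold higher in fresh SMMC than in MuSC (2.70 ± 0.34, adjusted p = 2.71e-05, limma) and 13.1-fold lower in proliferating than in fresh SMMC (-3.71 ± 0.31, adjusted p = 5.15e-07). In differentiating SMMC it was 2.32-fold above proliferating SMMC (1.21 ± 0.31, adjusted p = 0.00734, limma), a call lost when only those 2 groups were fitted (adjusted p = 0.0571).

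Timp3 (the matrix-bound inhibitor that also acts on ADAM17 and on aggrecan-cutting ADAMTS proteases; chr10:86300412-86349505, within Syn3 on the opposite strand) had the largest fall in proliferating SMMC among the tested members on the log2(FPKM + 1) scale, an order that depends on the added 1 FPKM. It had 753, 911 and 973 FPKM in fresh SMMC, 7.58, 8.75 and 12.1 FPKM in proliferating SMMC, and 67.6, 104 and 27.3 FPKM in differentiating SMMC, against 115 and 106 FPKM in MuSC. The groups of fresh, proliferating and differentiating SMMC did not overlap. Proliferating SMMC were 84.9-fold lower than fresh SMMC (-6.41 ± 0.37, adjusted p = 3.14e-08, limma), and differentiating SMMC were 5.72-fold higher than proliferating SMMC (2.52 ± 0.37, adjusted p = 0.000194). Fresh SMMC exceeded MuSC 7.82-fold (2.97 ± 0.41, adjusted p = 5.69e-05, limma). Timp4, known for its vascular and cardiac expression, was low, at 4.85, 4.66 and 2.31 FPKM in fresh SMMC, against 0.321 and 0.233 FPKM in MuSC (1.91 ± 0.25, adjusted p = 3.07e-05, limma).

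The composition of the Timp pool changed with these falls. Timp3 made up 54.2 to 67.5% of the summed Timp FPKM in fresh SMMC, 6.82 to 13.7% in proliferating SMMC and 21.4 to 30.3% in differentiating SMMC, against 57.5 and 59.5% in MuSC. Timp1 made up 2.71 to 6.02% in fresh SMMC, 32.6 to 54.1% in proliferating and 27.2 to 35.9% in differentiating SMMC, against 1.88 and 1.25% in MuSC. The ratio of summed Timp to summed Mmp FPKM was 0.794, 1.07 and 1.52 in fresh SMMC, 1.80, 1.35 and 1.86 in proliferating SMMC and 1.56, 1.99 and 3.001 in differentiating SMMC, against 2.34 and 2.12 in MuSC. The fresh SMMC libraries overlapped the proliferating ones and lay below both MuSC libraries in this ratio, although both sums were far higher in fresh SMMC. No test was run on the ratio.

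**Figure D3:**
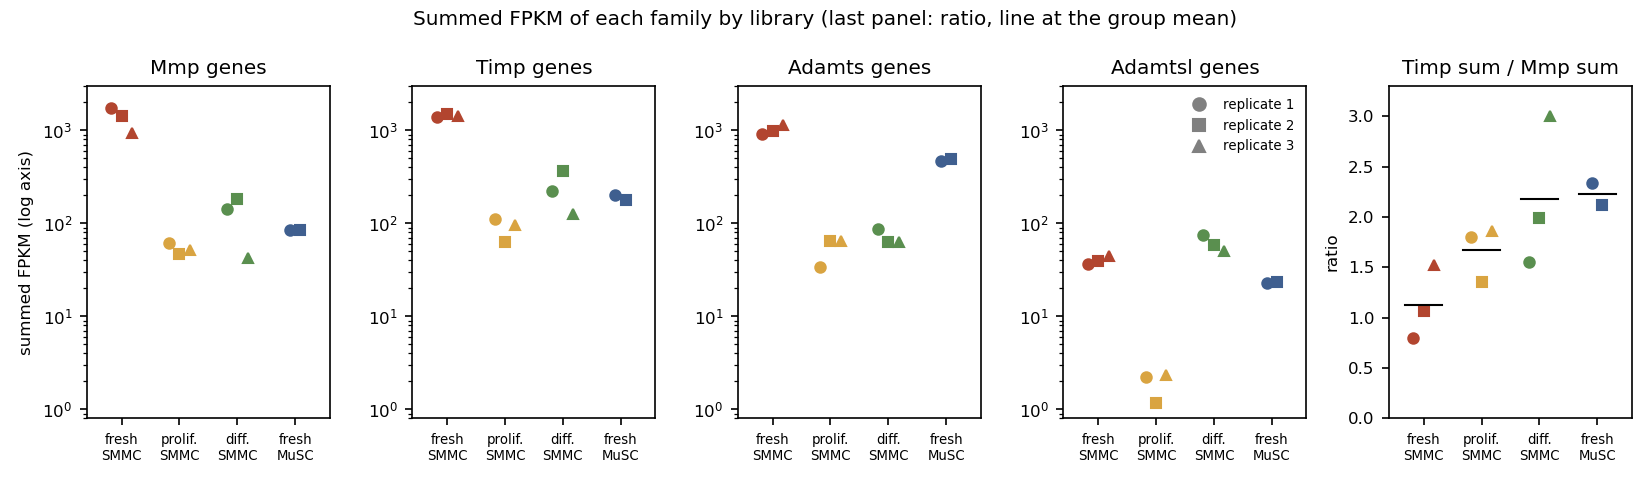
Summed FPKM of the 23 Mmp, 4 Timp, 19 Adamts and 5 Adamtsl genes (log axis) and the ratio of the Timp to the Mmp sum (linear axis, line at the group mean) in each library, with the replicate number as the shape. Fresh SMMC lead the Mmp, Timp and Adamts sums, differentiating SMMC lead the Adamtsl sum, and the ratio is lowest in fresh SMMC replicate 1 at 0.794.

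Among the proteoglycan-cutting ADAMTS proteases, Adamts4 (aggrecanase 1; chr1:171250129-171262267) was the most abundant Adamts gene of both fresh populations. It had 438, 475 and 506 FPKM in fresh SMMC, 7.27, 15.5 and 19.5 FPKM in proliferating SMMC, and 7.98, 3.66 and 9.52 FPKM in differentiating SMMC, against 291 and 296 FPKM in MuSC. Fresh SMMC and MuSC did not overlap, but their difference of 0.68 ± 0.38 did not pass (adjusted p = 0.139, limma), while proliferating SMMC were 33.6-fold lower than fresh SMMC (-5.07 ± 0.34, adjusted p = 9.76e-08). Fitted with those 2 groups alone, the difference between fresh SMMC and MuSC passed (adjusted p = 0.0265). Differentiating against proliferating SMMC gave -0.89 ± 0.34 (adjusted p = 0.0535, limma), and this passed without proliferating replicate 1 (adjusted p = 0.0055) and without differentiating replicate 3 (adjusted p = 0.0288). Adamts4 made up 44.2 to 48.1% of the summed Adamts FPKM in fresh SMMC, 21.2 to 29.9% in proliferating and 5.82 to 14.9% in differentiating SMMC, against 62.3 and 59.7% in MuSC.

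Adamts1 (a versican-cutting protease of vessels and ovary; chr16:85793827-85803113) had 161, 221 and 310.2 FPKM in fresh SMMC, 1.00, 2.40 and 3.79 FPKM in proliferating SMMC, and 4.66, 4.29 and 3.40 FPKM in differentiating SMMC, against 45.7 and 54.1 FPKM in MuSC. No cultured library came near a fresh one. Adamts1 was 4.40-fold higher in fresh SMMC than in MuSC (2.14 ± 0.35, adjusted p = 0.000195, limma) and 70.0-fold lower in proliferating than in fresh SMMC (-6.13 ± 0.31, adjusted p = 1.2e-08). Its neighbour on chromosome 16, Adamts5 (aggrecanase 2; chr16:85858157-85901125), had 24.8, 36.7 and 46.4 FPKM in fresh SMMC, 1.96, 2.44 and 2.87 FPKM in proliferating SMMC, and 5.52, 5.93 and 7.51 FPKM in differentiating SMMC, against 16.0 and 35.5 FPKM in MuSC. Adamts5 overlapped between both fresh populations (0.53 ± 0.33, adjusted p = 0.195, limma), a difference that was 1.08 and passed without MuSC replicate 2 (adjusted p = 0.027). It fell 10.6-fold in proliferating against fresh SMMC (-3.40 ± 0.30, adjusted p = 8.49e-07) and was 2.14-fold higher in differentiating than in proliferating SMMC (1.10 ± 0.30, adjusted p = 0.0111).

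Adamts8 (an aggrecan-cutting protease with anti-angiogenic activity; chr9:30942562-30963838) had 31.9, 32.7 and 38.8 FPKM in fresh SMMC and at most 0.856 FPKM in cultured SMMC, against 3.52 and 4.86 FPKM in MuSC. Adamts20 (a protease needed for pigment cell development in mice; chr15:94268314-94432074) ran the other way between fresh populations, at 4.16, 1.85 and 4.40 FPKM in fresh SMMC against 6.89 and 7.46 FPKM in MuSC. That difference of -0.93 ± 0.32 passed (adjusted p = 0.0238, limma) but not without fresh SMMC replicate 2 (-0.63, adjusted p = 0.09), MuSC replicate 1 (adjusted p = 0.0782) or MuSC replicate 2 (adjusted p = 0.113), and 6 of 19 alternatives in all lost the call (adjusted p up to 0.117).

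Among the procollagen-trimming members, Adamts2 (chr11:50602085-50807573) had the largest rise over MuSC among the tested members on the log2(FPKM + 1) scale, an order that again depends on the added 1 FPKM. It had 205, 136 and 142 FPKM in fresh SMMC, 0.611, 1.49 and 3.18 FPKM in proliferating SMMC, and 13.3, 6.24 and 2.64 FPKM in differentiating SMMC, against 2.36 and 4.40 FPKM in MuSC. Fresh SMMC exceeded MuSC 37.4-fold (5.23 ± 0.51, adjusted p = 3.23e-06, limma), and proliferating SMMC were 62.3-fold below fresh SMMC (-5.96 ± 0.46, adjusted p = 2.81e-07). The differentiating libraries overlapped the proliferating ones, and the call between them (1.4965 ± 0.46, adjusted p = 0.0203, limma) was lost without proliferating replicate 1 (adjusted p = 0.0764), proliferating replicate 2 (adjusted p = 0.0532) or differentiating replicate 1 (adjusted p = 0.0925), and in 5 of 20 alternatives in all (adjusted p up to 0.103).

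Adamts14 (chr10:61197112-61273419), which also removes the amino-terminal propeptide of procollagen, ran opposite to Adamts2 in both comparisons just given with fresh SMMC. It had 2.00, 2.22 and 1.89 FPKM in fresh SMMC, 12.3, 24.8 and 12.9 FPKM in proliferating SMMC, and 20.7, 18.2 and 17.8 FPKM in differentiating SMMC, against 10.5 and 9.60 FPKM in MuSC. Fresh SMMC lay below every other library. Adamts14 was 3.64-fold lower in fresh SMMC than in MuSC (-1.86 ± 0.27, adjusted p = 8.77e-05, limma) and 5.55-fold higher in proliferating than in fresh SMMC (2.47 ± 0.24, adjusted p = 2.27e-06). In FPKM, Adamts14 exceeded Adamts2 in each of the 6 cultured and both MuSC libraries while Adamts2 exceeded Adamts14 in each of the 3 fresh SMMC libraries.

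Adamts7 (which cuts cartilage oligomeric matrix protein; chr9:90162904-90200102) was the other member that rose in culture. It had 4.65, 4.36 and 8.68 FPKM in fresh SMMC, 7.84, 14.2 and 16.2 FPKM in proliferating SMMC, and 26.8, 16.9 and 17.99 FPKM in differentiating SMMC, against 6.01 and 2.13 FPKM in MuSC. Differentiating SMMC exceeded fresh SMMC 3.18-fold without overlap (1.67 ± 0.36, adjusted p = 0.00132, limma). Proliferating SMMC overlapped fresh SMMC, and their difference of 0.99 ± 0.36 passed (adjusted p = 0.0272, limma) but was lost without fresh replicate 1 (adjusted p = 0.089), fresh replicate 2 (adjusted p = 0.0995), proliferating replicate 2 (adjusted p = 0.0812) or proliferating replicate 3 (adjusted p = 0.0979), and in 6 of 20 alternatives in all. Adamts7 and Adamts14 together made up 0.666 to 0.922% of the summed Adamts FPKM in fresh SMMC, 44.6 to 60.0% in proliferating and 54.6 to 56.2% in differentiating SMMC, against 3.53 and 2.37% in MuSC. Adamts10, a fibrillin-binding protease (chr17:33523646-33553782), had 12.1, 22.8 and 24.6 FPKM in fresh SMMC against 67.1 and 65.1 FPKM in MuSC (-1.75 ± 0.38, adjusted p = 0.00151, limma). Its MuSC libraries stood above those of every other group, as did those of Adamts20.

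The ADAMTS-like genes, which make no protease, rose in differentiating SMMC in 4 of 5 cases. Adamtsl5 (chr10:80339793-80349030) had 5.96, 9.51 and 15.7 FPKM in fresh SMMC, 0.813, 0.431 and 0.332 FPKM in proliferating SMMC, and 35.0, 34.5 and 24.2 FPKM in differentiating SMMC, against 0.187 and 0.0959 FPKM in MuSC. Adamtsl2, which binds fibrillin and latent TGF-beta binding proteins (chr2:27079336-27108981), had 3.02, 1.65 and 2.34 FPKM in fresh SMMC, 0.579, 0.146 and 1.16 FPKM in proliferating SMMC, and 31.3, 20.2 and 22.5 FPKM in differentiating SMMC, and was listed at 0 in both MuSC libraries. In both genes the differentiating libraries lay above all others and the proliferating libraries below the fresh ones. Differentiating SMMC exceeded proliferating SMMC 21.0-fold for Adamtsl5 (4.40 ± 0.30, adjusted p = 7.81e-07, limma) and 16.0-fold for Adamtsl2 (4.004 ± 0.27, adjusted p = 7.68e-07). Adamtsl1 and Adamtsl4 also rose in that comparison, by 1.65 ± 0.32 and 1.42 ± 0.26 on the log2 scale (adjusted p = 0.00131 and 0.00109, limma), yet both stayed below fresh SMMC (-1.53 and -1.70, adjusted p = 0.000977 and 0.000117). The skeletal muscle fibre markers also rose between these groups, from 557 to 1477 FPKM in proliferating SMMC to 12935.3 to 16279.0 FPKM in differentiating SMMC. In fresh SMMC they summed to 57.3 to 110 FPKM. From fresh to proliferating SMMC these markers thus rose while the Adamtsl genes fell. The part of the fibre markers in the Adamtsl rise was not tested.

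The promoters of both leading Adamtsl genes are given because the genes rose together in cells that raised muscle fibre markers, with the E-box CAGCTG, a form bound by myogenic factors, and TATAAA in capitals. They run 5′ to 3′ on the gene's strand over the same 300 bases of RefSeq GRCm38.p6:
Adamtsl2 (chr2:27079129-27079428, +): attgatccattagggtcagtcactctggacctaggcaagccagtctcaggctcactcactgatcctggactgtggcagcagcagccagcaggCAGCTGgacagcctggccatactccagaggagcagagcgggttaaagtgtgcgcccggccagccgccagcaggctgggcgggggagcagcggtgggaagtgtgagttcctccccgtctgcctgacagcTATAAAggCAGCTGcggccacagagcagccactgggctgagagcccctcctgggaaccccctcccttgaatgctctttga
Adamtsl5 (chr10:80348399-80348698, -): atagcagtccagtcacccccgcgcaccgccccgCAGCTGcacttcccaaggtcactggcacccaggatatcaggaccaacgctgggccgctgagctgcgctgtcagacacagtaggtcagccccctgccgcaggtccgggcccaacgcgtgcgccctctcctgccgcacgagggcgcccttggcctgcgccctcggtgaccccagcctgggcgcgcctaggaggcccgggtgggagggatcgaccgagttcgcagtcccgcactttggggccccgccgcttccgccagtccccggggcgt

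CAGCTG, which reads the same on both strands, stood 2 times in the Adamtsl2 promoter and 1 time in that of Adamtsl5. It was found for 9 of the 36 members with a promoter, and in 16.3% of all promoters listed. Adamtsl4, which also rose, had no match. As with AP-1, matching letters are not evidence that a factor binds there.

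The fresh SMMC libraries differed among themselves in their marker sums. Replicate 1 had the highest tenocyte sum (18478.8 FPKM) and the lowest pericyte sum (1459 FPKM), and replicate 3 the lowest tenocyte sum (9052 FPKM) and the highest pericyte sum (3785 FPKM). Other marker sums shared these orders, given here for replicates 1, 2 and 3. FAP (4307, 3144 and 2286 FPKM) and fibre markers (110, 58.2 and 57.3 FPKM) ranked as tenocyte markers did. Vascular smooth muscle (1206, 1399 and 1862 FPKM) and endothelial markers (213, 278 and 345 FPKM) ranked as pericyte markers did. Neither order is thus particular to a single cell type. Of the 34 tested members, 9 ranked the 3 libraries as the tenocyte sum did: Mmp2, Mmp13, Mmp14, Mmp23, Timp1, Timp2, Timp4, Adamts3 and Adamts6. Another 11 ranked the libraries as the pericyte sum did: Adamts1, Adamts4, Adamts5, Adamts8, Adamts9, Adamts10, Adamts12, Adamts15, Adamtsl5, Mmp11 and Timp3. Over all genes tested, these orders held for 17.8% and 30.5%, and the pericyte order was thus about as common among the members as among all genes. The other 14 members followed neither order. With 3 libraries this is a description, and the part of cell makeup in the spread between these libraries was not tested. Differentiating replicate 3 was lowest of its group for Mmp2, Mmp14, Timp1, Timp2 and Timp3. It also had the group's lowest FAP marker sum, 19.98 FPKM against 49.2 and 110.5 FPKM in replicates 1 and 2. Its tenocyte (15.5 against 34.9 and 31.6 FPKM), vascular smooth muscle (1021 against 1212 and 1508 FPKM) and Schwann or glial sums (3.85 against 9.13 and 7.39 FPKM) were lowest too. Its pericyte sum was not (38.2 against 42.2 and 25.9 FPKM), and its muscle stem cell sum was highest (2263 against 1851 and 1779 FPKM). The part of these marker sums was not tested either.

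The genes that activate, clear or inhibit the proteases were counted in the same way. Of 20 genes in that list 15 were tested, and 10 were higher and 3 lower in fresh SMMC than in MuSC, against 41.7% and 18.0% of all genes; 3 were higher and 10 lower in proliferating than in fresh SMMC, against 33.1% and 35.4%. Plat (tissue plasminogen activator) averaged 567 ± 101 FPKM in fresh SMMC and 71.6 ± 13.6 FPKM in MuSC, and 4.07 ± 0.373 FPKM in proliferating SMMC (SD, n = 3, 2 and 3). Plaur (the urokinase receptor) went the other way, at 26.6 ± 12.7 FPKM in fresh SMMC and 739 ± 190.0 FPKM in MuSC (-4.83 log2, adjusted p = 7.54e-06, limma). Bsg (basigin, an inducer of MMPs) rose in fresh SMMC over MuSC, at 24.4 ± 6.07 FPKM in fresh SMMC and 1.33 ± 0.413 FPKM in MuSC (adjusted p = 2.6e-07, limma). It was also higher in differentiating SMMC, at 56.6 ± 8.29 FPKM, than in fresh SMMC (1.20 log2, adjusted p = 0.000388, limma).

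Of the 12 related ADAM genes, several of which encode proteases that shed membrane proteins, 11 were tested; 5 were higher and 3 lower in fresh SMMC than in MuSC, shares near the 41.7% and 18.0% of all genes, and 0 were higher and 6 lower in proliferating than in fresh SMMC, against 33.1% and 35.4%. Adam10, the main sheddase of Notch, averaged 11.7 ± 3.41 FPKM in fresh SMMC and 96.9 ± 7.84 FPKM in MuSC, and Adam15 averaged 45.1 ± 3.08 FPKM in fresh SMMC and 1.26 ± 0.0029 FPKM in MuSC. Of 22 substrates, 19 were tested; 16 were higher and 1 lower in fresh SMMC than in MuSC, and 1 was higher and 18 lower in proliferating than in fresh SMMC, beside the same shares of all genes. That list holds the tenocyte markers Comp and Fmod and the FAP markers Dcn, Lum and Col3a1, so it is not independent of the marker sums. Vcan (versican), a substrate of several ADAMTS proteases, was the 1 substrate lower in fresh SMMC than in MuSC and the 1 higher in proliferating than in fresh SMMC, at 3.13 ± 1.67 FPKM in fresh SMMC and 8.60 ± 1.74 FPKM in MuSC, and at 6.67 ± 0.521 FPKM in proliferating SMMC.

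The single-cell libraries show which cells of uninjured muscle carry each gene. Library 1 held 6144 cells with 19353328 unique molecular identifiers (UMIs, each counted as 1 transcript molecule) and a median of 2516 per cell, and library 2 held 6297 cells with 15507938 UMIs and a median of 2027; 53 cell barcodes occurred in both. Cells were clustered with every member left out of the clustering genes, and 26 of 28 clusters could be named from marker genes into 13 classes. The same cells define the classes and carry the values, and both libraries belong to 1 group, so the values are a description with no test. Values are CPM, a member's UMIs scaled to all UMIs summed over the class, and intervals are exact 95% Poisson intervals that cover counting error only. Of the 51 members, 42 were listed in library 1 and 41 in library 2, and 13 reached 100 CPM in a named class in both libraries. B cells, which are not known to make these matrix genes, were taken as a low reference. They had 5.11 and 33.7 CPM for Timp1 and 6.08 and 17.1 CPM for Mmp2 in libraries 1 and 2. The source of these UMIs was not tested.

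**Figure D4:**
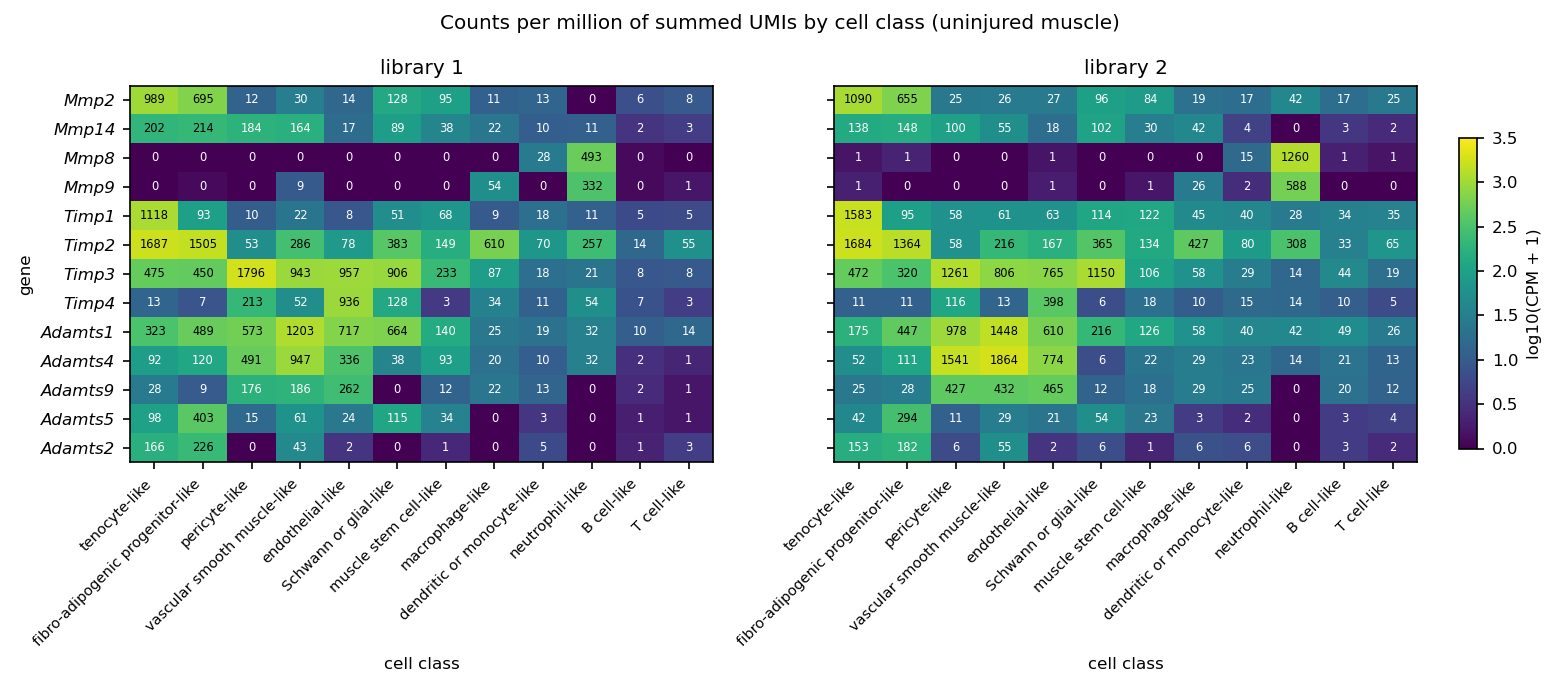
CPM of summed UMIs of 13 members (rows) in 12 cell classes (columns) of the 2 uninjured libraries, printed in each cell and coloured as log10(CPM + 1). Timp1 stands out in tenocyte-like cells (1118 and 1583 CPM), Mmp8 and Mmp9 in neutrophil-like cells, Timp4 in endothelial-like cells, and Adamts1 and Adamts4 in vascular smooth muscle-like cells.

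The gelatinase genes divided between connective tissue and blood cells. Mmp2 had 989 (940 to 1040) and 1090 (1043 to 1137) CPM in tenocyte-like cells and 695 and 655 CPM in FAP-like cells, and fell away to 95.1 and 83.5 CPM in muscle stem cell-like cells and 12.1 and 24.9 CPM in pericyte-like cells. Mmp9 (gelatinase B) had 332 and 588 CPM in neutrophil-like cells and 53.6 and 25.7 CPM in macrophage-like cells, and at most 8.65 CPM elsewhere. Mmp14 was spread over FAP-like (214 and 148 CPM), tenocyte-like (202 and 138 CPM) and pericyte-like cells (184 and 99.7 CPM). In pericyte-like cells Mmp14 thus stood well above its partner Mmp2, whose level there was within a few-fold of that in B cells.

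Tenocyte-like cells led for Timp1 and Timp2, pericyte-like cells for Timp3 and endothelial-like cells for Timp4. Timp1 had 1118 (1066 to 1172) and 1583 (1528 to 1641) CPM in tenocyte-like cells, and the next named class was far below in each library, FAP-like cells at 93.2 CPM in library 1 and muscle stem cell-like cells at 122 CPM in library 2. Timp2 had 1687 and 1684 CPM in tenocyte-like cells, 1505 and 1364 CPM in FAP-like cells and 610.0 and 427 CPM in macrophage-like cells. Timp3 was led by pericyte-like cells (1796 and 1261 CPM), with 957 and 765 CPM in endothelial-like, 943 and 806 CPM in vascular smooth muscle-like and 906 and 1150.0 CPM in Schwann-like or glial-like cells. Timp4 had 936 and 398 CPM in endothelial-like cells and 213 and 116 CPM in pericyte-like cells.

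Of the Adamts genes named here, some led in vessel-wall classes and others in FAP-like cells, though Adamts1 was spread over both. Adamts4 had 947 and 1864 CPM in vascular smooth muscle-like cells, 491 and 1541 CPM in pericyte-like and 336 and 774 CPM in endothelial-like cells, and was lower in library 1 than in library 2 in each of the 3. Adamts1 had 1203 and 1448 CPM in vascular smooth muscle-like, 573 and 978 CPM in pericyte-like and 717 and 610 CPM in endothelial-like cells. It also had 489 and 447 CPM in FAP-like, 664 and 216 CPM in Schwann-like or glial-like and 323 and 175 CPM in tenocyte-like cells. Adamts9, a proteoglycan-cutting protease with anti-angiogenic activity, had 262 and 465 CPM in endothelial-like, 186 and 432 CPM in vascular smooth muscle-like and 176 and 427 CPM in pericyte-like cells, with overlapping intervals in library 2. Adamts5 instead had 403 and 294 CPM in FAP-like cells and 14.5 and 11.1 CPM in pericyte-like cells, and Adamts2 had 226 and 182 CPM in FAP-like and 166 and 153 CPM in tenocyte-like cells. Adamts1 and Adamts5, neighbours on chromosome 16, therefore peaked in different classes. In muscle stem cell-like cells Adamts4 had 92.9 and 22.0 CPM, against 1.95 and 20.7 CPM in B cells. The library 2 value was thus near that of B cells, while the sorted MuSC had 291 and 296 FPKM in bulk.

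The 6 endothelial-like clusters differed in these genes. Timp4 had 1631 and 1657 CPM in the cluster led by C1qtnf9 and Gpihbp1, a capillary gene, and 52.1 and 17.2 CPM in the cluster led by Selp, a gene of venules. Adamts4 ran the other way, with 17.3 and 45.8 CPM in the first and 1038 and 1367 CPM in the second. Adamts1 was highest in the cluster led by Cytl1, which also held the arterial genes Gja4 and Gja5 among its leading genes, at 1494 and 1493 CPM. Libraries 1 and 2 filled the clusters unevenly: the first cluster held 537 and 204 cells, and the cluster led by Selp held 72 and 272. The lower Timp4 and higher Adamts4 over all endothelial-like cells of library 2 stood beside that difference, whose part was not tested.

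**Figure D5:**
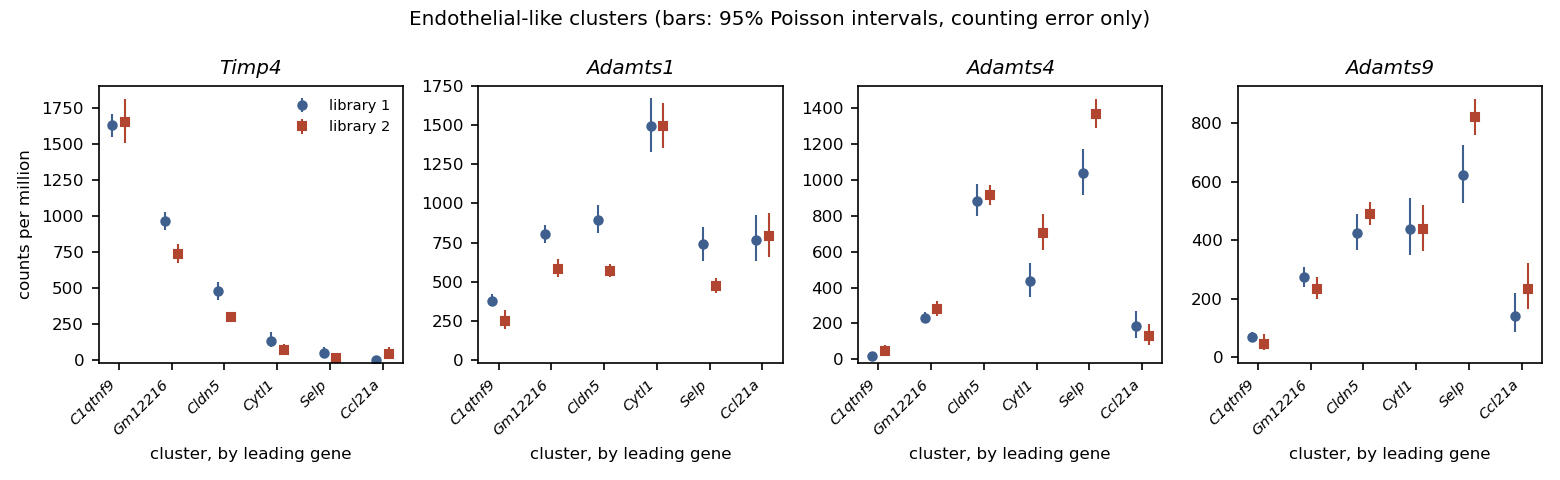
CPM of Timp4, Adamts1, Adamts4 and Adamts9 in the 6 endothelial-like clusters, named by their leading gene, in library 1 (circles) and library 2 (squares), with 95% Poisson intervals for counting error. Timp4 is highest in the cluster led by C1qtnf9 (1631 and 1657 CPM), where Adamts4 and Adamts9 are lowest, and Adamts4 and Adamts9 are highest in the cluster led by Selp.

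The chromosome 9 neighbours given here did not all lead in the same class, and some values rest on few cells. Of these, Mmp3, Mmp13 and Mmp12 share the AP-1 and TATA arrangement shown above. Mmp3 was highest in FAP-like cells at 134 (123 to 145) and 65.1 (55.5 to 75.8) CPM, where 14.2 and 6.85% of cells had a UMI. Mmp13 was highest in macrophage-like cells at 44.7 and 25.7 CPM, from 20 and 8 UMIs in 5 and 7 cells, although the bulk fresh SMMC libraries, with 6.87 to 12.2 FPKM of summed macrophage markers, held 4.79 to 13.9 FPKM of it. Mmp12 (macrophage elastase) was highest in macrophage-like cells of library 1, at 51.4 CPM, and in dendritic- or monocyte-like cells of library 2, at 70.8 CPM; the 23 UMIs behind the first lay in 2 cells. Mmp8, which lacked the AP-1 match, had 493 and 1259.66 CPM in neutrophil-like cells, a class of 38 and 21 cells. Mmp27, which also lacked the AP-1 match, had 7.40 and 8.33 CPM in FAP-like cells, from 32 and 21 UMIs, and was listed at 0 in every bulk library. Mmp19, on chromosome 10 and outside the cluster, had 91.6 and 157 CPM in macrophage-like cells.

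Of the 24 members with at least 50 UMIs in both libraries, 19 had the same highest class in both: 7 in FAP-like, 3 in tenocyte-like, 2 in vascular smooth muscle-like, 2 in endothelial-like, 2 in neutrophil-like, 1 in pericyte-like, 1 in macrophage-like and 1 in skeletal muscle fibre-like cells. The last, Adamtsl5, rests on a class of 13 and 14 cells. The members that rose in SMMC culture were near the limit of detection here: Adamts14 had 23 and 20 UMIs and Adamts7 13 and 19 UMIs in all cells of libraries 1 and 2. Adamtsl2 had 134 and 51 UMIs in all cells, with 28.7 and 17.1 CPM in FAP-like cells.

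Some members share exonic bases with a gene on the opposite strand, which counting without strand cannot separate, and the strand setting was not given in the sources used here. This holds for 13 of the 51 members and for 4 of the 17 named in bulk, among them Adamts7 with Tbc1d2b, Adamts8 with Gm29724 and Timp3 with Syn3.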

How the data were processed

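The members and gene lists were chosen with earlier results of these data known. Bulk values are FPKM per gene that the authors deposited without counts, so the depth behind them is unknown; low values showed no shared step from which reads could be recovered. StringTie, HISAT2 2.1.0 and SAMtools 1.3.1 appear with build mm10 in the submitters' processing notes, with no roles. Annotation and strand setting are not given in the sources used here. Besides, the table held 4 FPKM columns that match no sample label, and these were not used. The 13233 genes that reached 1 FPKM in 2 or more libraries were tested as log2(FPKM + 1) with limma 3.58.1 in R 4.3.3, in 1 fit over the 4 groups with 7 residual degrees of freedom, an intensity trend, two-sided p-values and Benjamini-Hochberg adjustment over all genes at 0.05. The fitting script was tested on simulated data.

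Single-cell tables are UMI counts per gene and cell that the authors deposited after filtering; Cell Ranger 2.2.0, STAR 2.5.1b and Seurat 2.3.4 are named in the submitters' processing notes. Every cell passed a filter of at least 200 genes and at most 20% mitochondrial UMIs. Scrublet marked 52 cells of library 1 (0.846%) and 4 of library 2 (0.0635%) as doublets, which were removed; in library 2 the caller did not work, so doublets remain there. Cells were clustered with scanpy 1.11.5 (2000 variable genes scaled within a library, members left out, 30 principal components, 15 neighbours, Leiden resolution 1.0). A cluster took the name of the best-scoring list with at least 3 markers, and at least 60% of the list, found in at least 20% of its cells. It stayed unnamed if no list met this or the score was low. It also stayed unnamed if another class had more markers among its 10 leading genes. The same held if its cells had few UMIs and no marker of the list was among those genes. These rules were set after seeing the data.

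Named bulk members were those that reached a group mean of 20 FPKM or stood among the top 3 per direction of a comparison, plus up to 4 genes of each pathway list. Members named in single cells reached 100 CPM in a class of both libraries. Others named in passing were chosen after their values were seen. Alternatives were the pseudocount, the low-value filter, TMM and quantile scaling, leaving out the ribosomal RNA gene Rn45s, fitting only the groups compared, a replicate block, and leaving out each library. One overlap between genes is not reported here.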

Additional observations from a re-analysis of the deposited data

How the results depend on the processing

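Each bulk result was recomputed under up to 20 alternatives. Of 1356 values for the named members, 1311 kept their direction and side of the threshold, 22 lost a call, 13 gained one and 10 reversed; no reversed value was called. The reversed values were, for Adamts5 in fresh SMMC against MuSC, -0.069 with TMM scaling and -0.025 without MuSC replicate 1; for Adamts7 there, -0.20 with quantile scaling and -0.078 without MuSC replicate 2; for Adamts8 in differentiating against proliferating SMMC, -0.010 with quantile scaling and -0.002 without differentiating replicate 1; and for Timp1 in differentiating against fresh SMMC, -0.11 with quantile scaling, -0.014 without Rn45s, -0.16 without fresh replicate 3 and -0.26 without differentiating replicate 2. Leaving out 1 library at a time, these log2 changes ran up to 1.076 for Adamts5, 1.088 for Adamts7, 0.444 for Adamts8 and 0.677 for Timp1. Of 160 counts of called members, 144 stayed within 1.5 times. Members lower in differentiating than in proliferating SMMC were 1 and not 0 with a pseudocount of 0.1, the filter at 10 FPKM, quantile scaling and the replicate block. Members higher in proliferating than in fresh SMMC were 1 and not 2 with no filter and without Rn45s. The filter at 10 FPKM left 21 members, of which 15 were higher in fresh SMMC than in MuSC, 18 lower in proliferating than in fresh SMMC and 16 lower in differentiating than in fresh SMMC. Quantile scaling gave 5 members lower in fresh SMMC than in MuSC. Leaving out 1 library gave 22 to 24 higher and 2 to 3 lower in fresh SMMC against MuSC, 1 to 2 and 28 to 29 in proliferating against fresh SMMC, 8 to 14 and 0 to 1 in differentiating against proliferating SMMC, and 5 to 5 and 23 to 25 in differentiating against fresh SMMC; the 14 came without differentiating replicate 3. The cause of these shifts was not tested. All 63 single-cell values lay within 1 SD of the mean of the 2 libraries, which those that leave out 1 of the 2 do by construction. No separate smooth muscle-like class formed at resolution 0.5, so its values have no such alternative.

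The labels do not say that replicate numbers pair the libraries. Same-numbered libraries correlated between -0.128 and 0.142 in their deviations from group means. Within a group of 2 or 3 libraries these deviations are tied to each other, so the values cannot show whether libraries are paired. With the replicate block, 23 members were higher in fresh SMMC than in MuSC and 28 lower in proliferating than in fresh SMMC.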

Other observations

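One small cluster of the uninjured libraries, 46 cells in library 1 and 83 in library 2, was led by Sfrp5 and stayed unnamed: FAP was its best-scoring list, with 5 of 9 markers detected, short of the 60% the naming rule asks. It carried genes of several roles at once: Adamts1 at 777 and 549 CPM, Mmp2 at 536 and 572 CPM, Timp2 at 406 and 512 CPM and Adamts4 at 364 and 407 CPM. Mmp2 was lower there than in FAP-like cells, which had 695 and 655 CPM, with overlapping intervals in library 2 only. Adamts4, which was at 120 and 112 CPM in FAP-like cells, was higher in this cluster.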
